A study of Mus musculus with 4 samples.

Results

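The genes described here are 31 genes of the endoplasmic reticulum stress response and of protein folding in that compartment, followed in lung RNA of mice that over-express IL-33. They were taken by gene name from a count table of 43346 genes. All 31 were found, and all 31 stayed among the 20872 genes tested after a filter on low counts. By role they are 4 sensor and XBP1 genes, 6 genes of the PERK-ATF4 branch, 11 chaperones and co-chaperones, 5 enzymes of oxidative folding and 5 genes of ER-associated degradation. Polyadenylated RNA was sequenced in 4 libraries of mouse lung material labelled as epithelial cells: B and E (transgenic replicates 1 and 2, genotype IL-33 over-expression) and D and F (control replicates 1 and 2, genotype control). The promoter and the cells that drive the transgene, the strain, the age, and the number of mice per library were not stated in the labels, so p-values measure only the spread between these libraries. The comparison asks how over-expressing IL-33 alters lung gene expression.

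Proteins that enter the secretory pathway fold inside the endoplasmic reticulum. When unfolded chains build up there, 3 membrane proteins signal to the nucleus: IRE1, which splices Xbp1 mRNA, ATF6, which is cut to release a transcription factor, and PERK, a kinase that slows translation and favours synthesis of the transcription factor ATF4. XBP1 and ATF6 raise chaperones, folding enzymes and degradation factors, whereas ATF4 raises genes of amino acid supply and, under lasting stress, Ddit3. Secretory cells such as alveolar type 2 cells, club cells and plasma cells depend on this machinery. RNA levels do not show Xbp1 splicing, ATF6 cleavage or ATF4 translation.

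Library totals ran from 76120696 counts in B to 87723745 in E. Il33 stood at 1723 CPM (counts scaled to library size) in B and 874 in E, against control levels of 117 (D) and 108 (F) (log2 fold change 3.53, SE 0.37), so the labels matched the gene over-expressed. Even this difference had an adjusted p of 1 in edgeR's quasi-likelihood test with 2 libraries a group. Epithelial markers were abundant, with 10 alveolar type 2 genes summing to 60555 (B) and 39797 (E) CPM in transgenic and 49968 (D) and 36256 (F) CPM in control material. The libraries also held other cells: 9 endothelial genes summed to 5024 (B), 8039 (E), 6438 (D) and 8845 (F) CPM, and 9 fibroblast and smooth muscle genes to 1598, 3356, 2394 and 3914 CPM in the same order. The 7 leukocyte genes summed to 363 and 420 CPM in the transgenic libraries B and E and to 295 and 339 CPM in the controls D and F. Their median log2 fold change was 0.90, and 6 of 7 were higher in both transgenic libraries, as were 11.9% of all genes. The same held for 8 of 8 neutrophil genes (median 1.27), 4 of 8 T cell genes (median 0.54) and 2 of 9 macrophage genes (median 0.71, with all 9 above 0). The libraries differed in Y-linked RNA as well, with 4 Y-linked genes summing to 1.43 (B), 23.2 (E), 258 (D) and 123 (F) CPM. In bulk RNA such as this, fewer cells of a type and less RNA per cell cannot be told apart.

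Across the 31 members, the differences between transgenic and control libraries were small. With edgeR's quasi-likelihood test, 0 members passed an adjusted p of 0.05, and 0 had an unadjusted p under 0.05. Over all genes tested, the same rule called 0 genes (0%), with 269 at an unadjusted p under 0.05. DESeq2 and limma-voom called 0 members as well. Il33 itself did not pass in edgeR or limma-voom, and it was the 1 gene called by the DESeq2 Wald test. The count of 0 therefore says little about the members, and their sizes and intervals are given instead. The member log2 fold changes ran from -0.20 (Trib3) to 0.20 (Chac1), with 16 above 0, 15 below and a median of 0.0042. The median over all genes tested was -0.0013. All 31 lay within 0.2 of zero on the log2 scale, as did 68.3% of all genes tested and 79.0% of those averaging at least 1 CPM. The largest member value was 0.199 in size (Trib3), just inside this bound. Under some of the other settings given below, the largest member value lay past it.

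The precision behind these values can be read from the 95% intervals of the fit. For 26 of the 31 members the interval stayed within a 1.5-fold change in either direction, and for 30 it stayed within a 2-fold change. The exception was Derl3, with an interval of -0.94 to 1.27, and the intervals of Trib3, Chac1, Dnajb9 and Pdia6 reached past 1.5-fold but not past 2-fold. Over all 20872 genes tested, 9306 intervals stayed within 1.5-fold and 14574 within 2-fold. Among the 15985 genes averaging at least 1 CPM the counts were 9306 and 14127. For 6 members both libraries of 1 group lay beyond both of the other. That is 19.4% of members, where 23.9% of all genes tested were so placed. Of these, 2 were higher in transgenic libraries (11.9% of all genes) and 4 were lower (12% of all genes). A single gene compared by exact permutation of 2 against 2 libraries cannot give a p below 0.33.

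**Figure D1:**
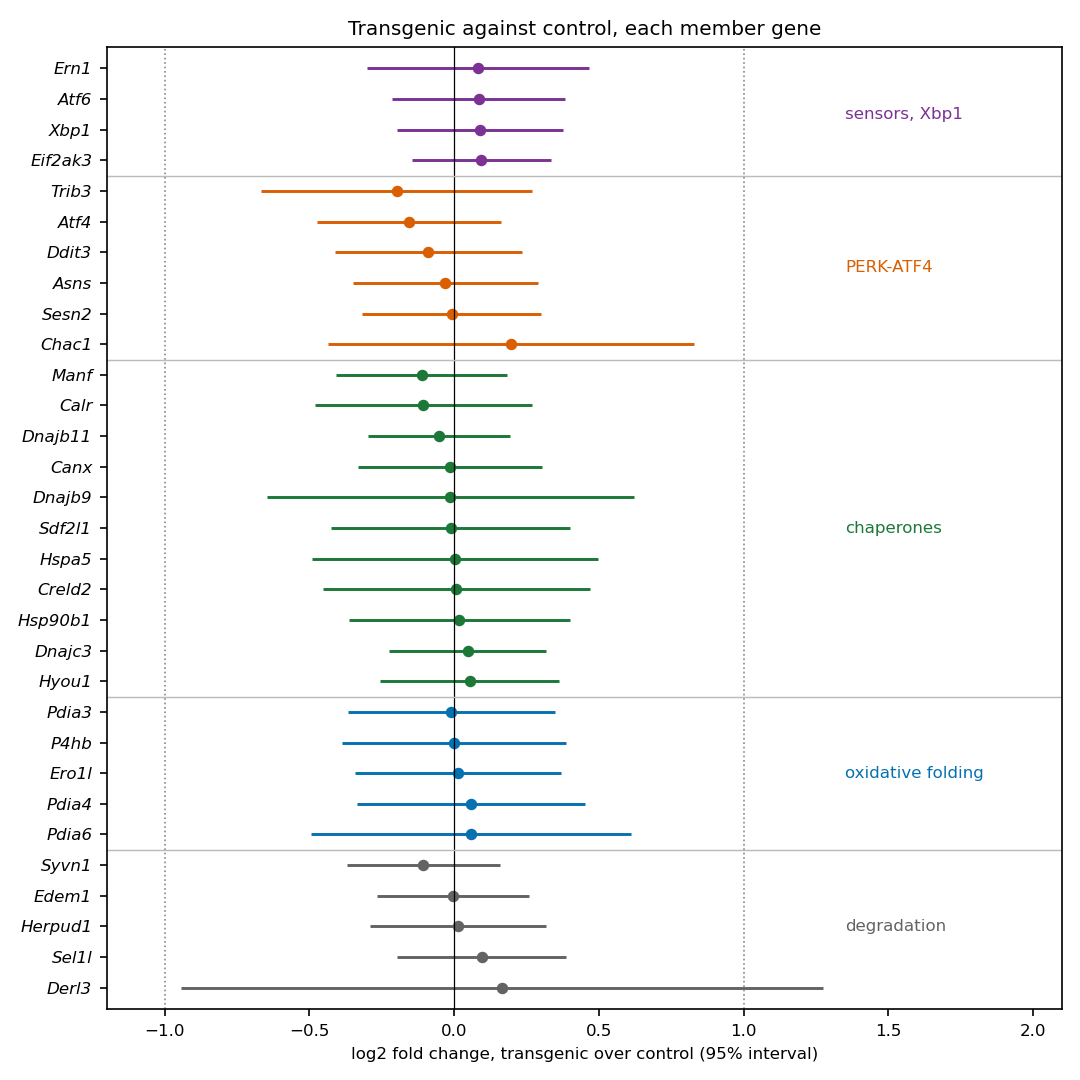
Log2 fold change of each member gene, transgenic over control, with its 95% interval from edgeR's fit (2 libraries per group); dotted lines mark 2-fold changes. All intervals span 0, and that of Derl3 alone reaches past 2-fold.

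The stress sensors were expressed at moderate levels and lay slightly above zero. Per length, in the RPKM deposited by the authors and averaged over the 4 libraries, Atf6 stood at 7.45, Eif2ak3 at 6.95 and Ern1 at 5.48, and the transcription factor gene Xbp1 was higher at 37.4. Eif2ak3 (chromosome 6, 70844515 to 70905245, GRCm38), which encodes PERK, read 46.8 CPM in B and 48.7 in E, against 44.7 in both D and F. Both transgenic libraries thus lay above both controls, by a small margin (log2 fold change 0.09, SE 0.09, 95% interval -0.15 to 0.33).

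Xbp1 (chromosome 11, 5520659 to 5525893) was at 162 (B), 145 (E), 149 (D) and 140 (F) CPM, so that E lay between the controls (log2 fold change 0.09, SE 0.11). Without B its value was 0.0083. Ern1, the gene of IRE1, was at 53.6 (B), 59.2 (E), 46.9 (D) and 59.6 (F) CPM. Atf6 was at 85.2 (B), 88.2 (E), 75.3 (D) and 88.2 (F) CPM. For Ern1 and Atf6 the control library D was the low one, and the other control, F, was the highest of the 4. All 4 genes of this role had log2 fold changes between 0.08 and 0.09, and without library D those of Ern1 and Atf6 turned negative (-0.08 and -0.02).

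The PERK-ATF4 branch lay slightly below zero. Of 6 genes, 5 had log2 fold changes below 0, with a median of -0.06 beside -0.0013 over all genes, and 0 passed the test. For Atf4, Trib3 and Ddit3 both transgenic libraries lay below both controls, 3 of 6 genes where 12% of all genes were so placed. In either direction, 23.9% of all genes had the groups apart. Among 29 further ATF4 targets described below, 16 values lay above 0 (median 0.01).

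Atf4 (chromosome 15, 80255184 to 80257540), the transcription factor at the head of the branch, read 224 CPM in B and 193 in E, against 236 in D and 229 in F. Library E was the low one, while B was close to the controls. Means were 209 ± 21.5 CPM with the transgene and 232 ± 4.74 CPM without it (SD, n = 2 each), a log2 fold change of -0.15 (SE 0.12, 95% interval -0.47 to 0.16; unadjusted p = 0.267). Without E the log2 fold change was -0.06, and without B it was -0.26. Atf4 mRNA was the most abundant of the branch, at 104 RPKM averaged over the libraries.

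Trib3 (chromosome 2, 152337422 to 152344032) encodes a pseudokinase that ATF4 and CHOP induce. It stood at 5.04 (B), 4.32 (E), 5.55 (D) and 5.20 (F) CPM (log2 fold change -0.20, SE 0.18). Ddit3 (chromosome 10, 127290774 to 127296288), encoding CHOP, the transcription factor of prolonged stress, stood at 12.5 (B), 11.6 (E), 12.7 (D) and 12.9 (F) CPM. The groups did not overlap for Ddit3, but B stood close to D, and the log2 fold change was -0.09 (SE 0.13). Ddit3 had 4088 counts over the 4 libraries and overlaps the gene Mars, which had 14331, and whether the counting kept their reads apart is not given in the sources used here.

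The other ATF4 targets among the members overlapped between the groups in CPM. Asns, asparagine synthetase, was at 13.2 (B), 12.5 (E), 13.5 (D) and 12.7 (F) CPM. Sesn2, encoding the stress-induced regulator sestrin 2, was at 20.1 (B), 17.6 (E), 18.7 (D) and 19.2 (F) CPM. Chac1, an enzyme that degrades glutathione, was scarce, with 111 to 132 counts per library. It was at 1.75 (B), 1.47 (E), 1.5 (D) and 1.30 (F) CPM, so that E lay between the controls (log2 fold change 0.20, SE 0.25, and 0.07 without B). Of the 6 genes of the branch, 5 were lowest in library E, all but Chac1.

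Immediate-early genes also lay mostly below 0. Of 18, 17 had log2 fold changes below 0 (median -0.18), and 10 lay below both controls in both transgenic libraries, as did 12% of all genes, with 0 passing the test. The smallest p belonged to Csrnp1 (-0.48, SE 0.10), Egr3 (-1.12, SE 0.30) and Nr4a1 (-0.47, SE 0.13). Their summed level was 10266 CPM in E, the lowest, and 11926 in B, 11803 in D and 12443 in F. Their part in the ATF4 values was not tested.

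The promoters of this branch were searched for the C/EBP-ATF response element, the composite site that ATF4 binds in amino acid response genes. RefSeq promoter windows (GRCm38.p6, 250 bases before to 50 after the annotated start) were found for 28 members, 27 by symbol and Ero1l under a newer symbol. The letters searched were TGATGNAA on either strand. They occurred in 3 of the 6 PERK-ATF4 promoters, those of Trib3, Chac1 and Asns, and in none of 14 windows of folding genes. Over all 32851 windows of the same length, 3.97% held a match. The matches are shown in capitals with their flanks, 5′ to 3′ on the strand of the gene, so that the genes with and without group separation can be compared (Trib3, minus strand, chr2:152344028-152344057; Chac1, plus strand, chr2:119351034-119351071; Asns, minus strand, chr6:7693210-7693247).
Trib3: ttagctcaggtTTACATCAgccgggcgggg
Chac1: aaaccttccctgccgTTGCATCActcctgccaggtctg
Asns: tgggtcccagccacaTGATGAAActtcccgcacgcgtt
The match lay 15 to 22 bases past the start in Trib3, at -193 to -186 in Chac1 and at -23 to -16 in Asns. No match lay in the Ddit3, Atf4 or Sesn2 windows, which says only that these letters are not in those stretches. The 3 genes that share the element had log2 fold changes of -0.20, 0.20 and -0.03.

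Several chaperones were among the most abundant members, and the groups overlapped for all 11. Of 11 genes, 5 had log2 fold changes above 0 and 6 below, from -0.11 (Manf) to 0.05 (Hyou1), with a median of -0.01. For 10 of the 11 the lowest library was E, a transgenic one, and for 8 the highest was B, the other transgenic one.

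Hspa5 (chromosome 2, 34771970 to 34777547) encodes BiP, the HSP70 of the endoplasmic reticulum, whose mRNA is the customary readout of the unfolded protein response. It was at 906 CPM in B and 677 in E, against 824 in D and 754 in F. The 2 transgenic libraries lay on either side of both controls. The group means were 792 ± 162 and 789 ± 49.5 CPM (SD, n = 2 each), a log2 fold change of 0.0042 (SE 0.19, 95% interval -0.49 to 0.50). Its sign depended on the libraries used: it was -0.22 without B and 0.19 without E.

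Dnajb9, an XBP1 target encoding the BiP co-chaperone ERdj4, was the most variable abundant member. It was at 101 (B), 60.6 (E), 82.8 (D) and 80.1 (F) CPM, a 1.66-fold range. Library B was above and E below 2 nearly equal controls (log2 fold change -0.01, SE 0.25). Without B the log2 fold change was -0.42, and without E it was 0.30; neither passed (unadjusted p below 0.05 in the first only, the single member and setting where this occurred). The other co-chaperones varied less. Dnajc3, the p58IPK gene, ranged from 185 CPM in D to 200 in B, and Dnajb11, encoding ERdj3, from 83.7 CPM in E to 90.5 in D.

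Hsp90b1, encoding the HSP90 paralog GRP94, was at 923 (B), 821 (E), 884 (D) and 838 (F) CPM. Canx and Calr encode the lectin chaperones calnexin and calreticulin, which hold glycoproteins during folding. Canx ranged from 420 CPM in E to 451 in B. Calr (chromosome 8, 84841850 to 84846934) was at 683 (B), 606 (E), 726 (D) and 663 (F) CPM, and here the control D was the highest (log2 fold change -0.11, SE 0.15). Hyou1, the nucleotide exchange factor GRP170, was at 166 (B), 142 (E), 150 (D) and 146 (F) CPM.

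Manf, a secreted factor induced by stress in this compartment, was at 79.6 (B), 71.3 (E), 86.2 (D) and 76.9 (F) CPM (log2 fold change -0.11, SE 0.12). Sdf2l1, a partner of BiP and ERdj3, ranged from 10.1 CPM in E to 12.2 in B. Creld2, another stress-induced protein of the compartment, was at 48.5 (B), 37.3 (E), 47.2 (D) and 38.1 (F) CPM. For Creld2 the high libraries were thus 1 transgenic and 1 control library. In the table, Manf and Hsp90b1 overlap other genes that hold at least 10% as many counts, as do Ddit3, Pdia6 and Syvn1, so their counts are less certain.

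**Figure D2:**
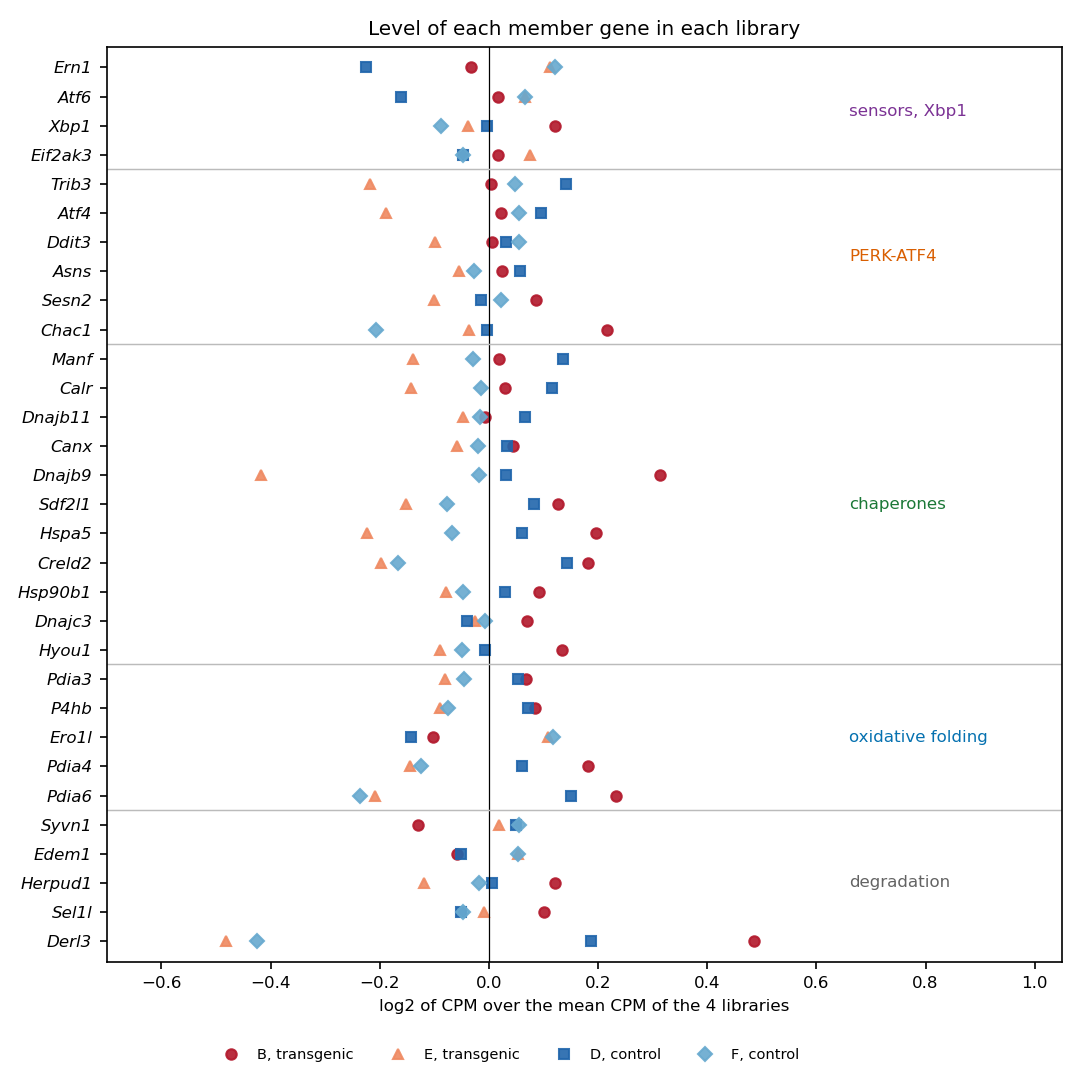
Level of each member gene in each library, as the log2 of its CPM over the mean of the 4 libraries (B and E transgenic, D and F control). For most chaperones B lies at the right and E at the left, with both controls between them.

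What several chaperones share apart from their function is a promoter element. The endoplasmic reticulum stress response element (ERSE), which ATF6 and XBP1 bind together with NF-Y, was searched as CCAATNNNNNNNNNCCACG on either strand. It occurred in 9 of 28 member windows (32.1%), against 39 of all 32851 windows (0.119%). The 9 were 7 of 14 folding windows, 2 of 5 windows of degradation genes and 0 of 6 PERK-ATF4 windows. A related form, ERSE-II (ATTGGNCCACG, which shares CCACG with the first), occurred in Herpud1 and Dnajb11, 2 of 28 windows against 0.0365% of all. In the 9 genes the element lay between 212 and 26 bases before the start, and Hsp90b1 held 2 copies. The matches of 4 chaperones and of Pdia6 are printed in capitals, 5′ to 3′ on the strand of the gene, because they show the element in both orientations and belong to genes described here with a value in every library (Hspa5, plus strand, chr2:34772010-34772058; Hsp90b1, minus strand, chr10:86705623-86705671; Calr, minus strand, chr8:84847060-84847108; Creld2, plus strand, chr15:88819505-88819553; Pdia6, plus strand, chr12:17266476-17266524).
Hspa5: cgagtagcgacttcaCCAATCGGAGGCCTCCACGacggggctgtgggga
Hsp90b1: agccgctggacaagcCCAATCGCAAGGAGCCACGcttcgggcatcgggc
Calr: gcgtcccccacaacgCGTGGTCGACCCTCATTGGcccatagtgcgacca
Creld2: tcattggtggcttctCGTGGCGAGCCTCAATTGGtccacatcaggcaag
Pdia6: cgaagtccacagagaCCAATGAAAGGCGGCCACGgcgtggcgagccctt
In Calr and Creld2 the element lies in the reverse orientation, so its letters appear as the reverse complement. Herpud1, which had both an ERSE-II and a C/EBP-ATF match, is shown for its ERSE-II (plus strand, chr8:94386362-94386402).
Herpud1: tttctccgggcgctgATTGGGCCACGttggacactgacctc
The 9 genes with an ERSE match had a median log2 fold change of 0.0076 and the 19 without a median of -0.0037. Highest in library B were 7 of the 9 and 10 of the 19, as were 33.7% of all genes tested. Outside the members, 28 genes had an ERSE match, of which 11 were tested under the same symbol. Their median log2 fold change was -0.03, and 1 of them was highest in B. Among them Xlr3a and Tdrd9 were under 1 CPM in every library, and Alg12 ends at chr15:88819318, beside the Creld2 match.

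**Figure D3:**
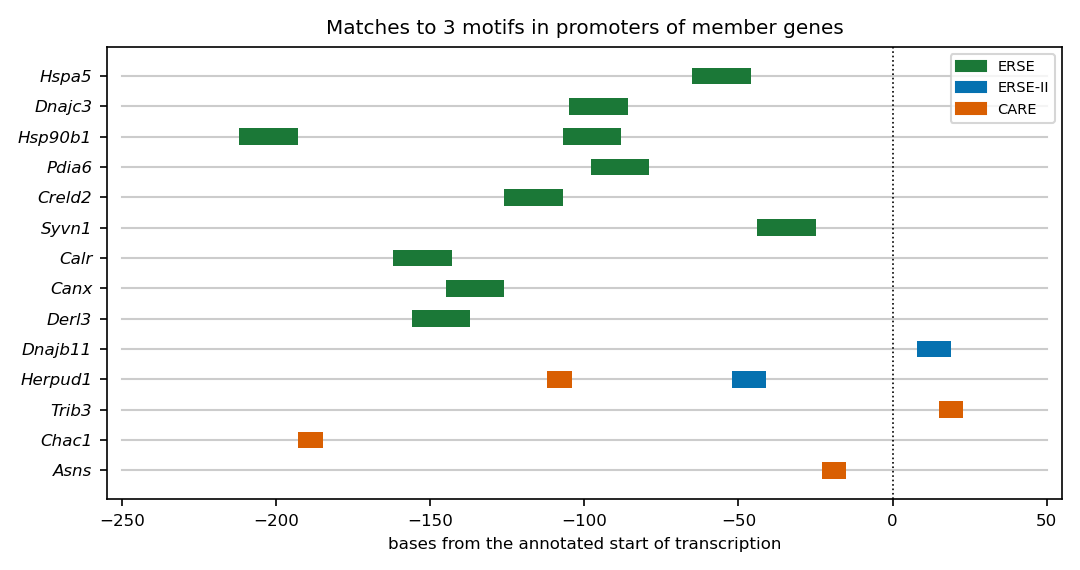
Position of each motif match in the RefSeq promoter windows of member genes, in bases from the annotated start (dotted line); grey lines span the window searched. ERSE matches lie before the start in all 9 genes, while the ERSE-II of Dnajb11 and the CARE (C/EBP-ATF element) of Trib3 lie past it.

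Enzymes of oxidative folding form and rearrange disulphide bonds. Of 5 genes, 3 had log2 fold changes above 0, from -0.01 to 0.06, and in all 5 the groups overlapped. P4hb, protein disulphide isomerase, had the highest level per length of all members, at 215 RPKM averaged over the libraries, ahead of Calr (189.5), Hsp90b1 (175) and Pdia3 (165). It was at 798 (B), 708 (E), 791 (D) and 716 (F) CPM, a log2 fold change of -0.00063 (SE 0.15, 95% interval -0.39 to 0.39). Pdia3, the isomerase that works with calnexin and calreticulin, ranged from 600 CPM in E to 665 in B.

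Pdia6 (chromosome 12, 17266545 to 17284770) was at 358 (B), 264 (E), 338 (D) and 259 (F) CPM, so it was high in 1 library of each group and low in the other. Its log2 fold change was 0.06 (SE 0.22). Pdia4 followed the same order of high and low libraries, at 187 (B), 149 (E), 171 (D) and 151 (F) CPM. Ero1l, the oxidase that recharges the isomerases, ran in the opposite order, at 55.7 (B), 64.5 (E), 54.2 (D) and 64.9 (F) CPM (log2 fold change 0.01, SE 0.14).

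Genes of ER-associated degradation, which return misfolded proteins to the cytosol for destruction, held 2 members with groups apart, in opposite directions. That is 40% of 5, where 23.9% of all genes were so placed, and 0 passed the test. Of the 5 genes, 3 had values above 0 (median 0.01). Sel1l (chromosome 12, 91806043 to 91849157), the adaptor of the main ubiquitin ligase complex, was at 295 CPM in B and 273 in E, against 265 in D and 266 in F. Both transgenic libraries were above both controls, E by the smaller margin (log2 fold change 0.10, SE 0.11, and 0.04 without B). Its partner, the ligase gene Syvn1, lay the other way, at 47.3 (B), 52.4 (E), 53.6 (D) and 53.8 (F) CPM (log2 fold change -0.11, SE 0.10). Library B was the low one for Syvn1, with E close to the controls, and its value without B was -0.03.

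Herpud1, which helps assemble that complex and is a target of both ATF6 and ATF4, was at 98.1 (B), 83.0 (E), 90.5 (D) and 89.0 (F) CPM. Edem1, which marks misfolded glycoproteins, ranged from 85.1 CPM in B to 92.0 in E. Derl3, of the derlin family of the retrotranslocation channel, was the scarcest member per length, at 0.689 RPKM, with 72 to 120 counts per library. It was at 1.59 (B), 0.812 (E), 1.29 (D) and 0.845 (F) CPM (log2 fold change 0.17, SE 0.43). Derl3 is abundant in plasma cells, and 16 of 18 plasma and B cell markers were in the table, 6 of them at 0 counts in at least 1 library. Their sum was 68.6 CPM in B and 89.6 in E, against 86.1 in D and 93.3 in F. Of the 10 that were tested, 8 had log2 fold changes above 0 (median 0.42), 3 were highest in B and 7 were lowest in D. Their part in the Derl3 values was not tested.

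The summed level of the folding members differed most between the 2 transgenic libraries. The 16 folding members (chaperones and oxidative folding) summed to 5720 (B), 4901 (E), 5550 (D) and 5118 (F) CPM, so both controls fell between the 2 transgenic libraries. B was the highest and E the lowest library for 10 of these 16 genes, as for 10.9% of all genes tested. The PERK-ATF4 members summed to 276 (B), 241 (E), 288 (D) and 280 (F) CPM, with the widest gap between control D and transgenic E. Most of each sum was Atf4 alone, at 224 (B), 193 (E), 236 (D) and 229 (F) CPM. Alveolar type 2 markers were also highest in B and higher in D than in E, though lowest in F, and endothelial and fibroblast markers were lowest in B. The part of cell composition in the folding gene levels was not tested.

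**Figure D4:**
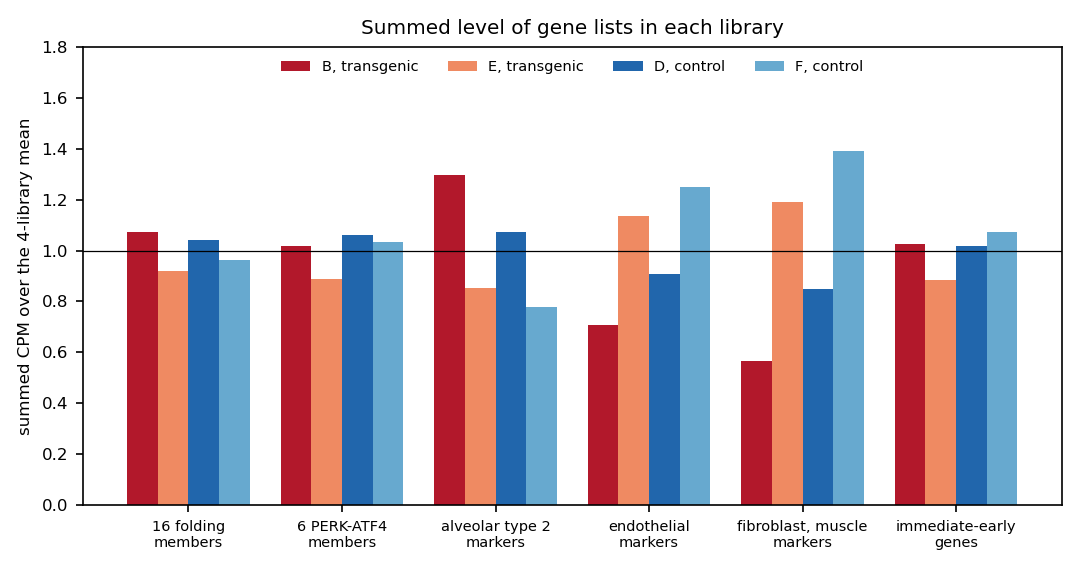
Summed CPM of 6 gene lists in each library, divided by the mean of the 4 libraries (bars start at 0; B and E transgenic, D and F control). The folding members differ by less than the cell type markers, and for them B is the highest and E the lowest library. Most of the PERK-ATF4 sum is Atf4.

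The wider secretory pathway was examined with lists that hold none of the members. Of 27 genes for translocation, signal peptide cleavage and glycosylation, 12 had values above 0 (median -0.0038) and 0 passed, with Srp72 (0.10, SE 0.10), Stt3b (0.09, SE 0.11) and Srpr (-0.09, SE 0.10) having the smallest p. Of 27 other folding enzymes and chaperones, 10 were above 0 (median -0.02) and 0 passed. These were led by Fkbp14 (-0.21, SE 0.13), Serpinh1, the collagen chaperone (-0.19, SE 0.14), and Pdia5 (-0.24, SE 0.18, and -0.05 without B). Fibroblast markers, whose own median was -0.29, lay the same way as Serpinh1, and their part was not tested.

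Of 23 other degradation genes, 8 were above 0 (median -0.04) and 0 passed, among them Ube2g2 (-0.13, SE 0.09), Selk (-0.10, SE 0.09) and Ube2j2 (-0.11, SE 0.12). Of 23 genes for transport between the endoplasmic reticulum and the Golgi, 9 were above 0 (median -0.01) and 0 passed. Kdelr3, a receptor that returns resident proteins, had the smallest p of these (-0.26, SE 0.13), followed by Sec24a (0.14, SE 0.11) and Kdelr1 (-0.08, SE 0.10).

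**Figure D5:**
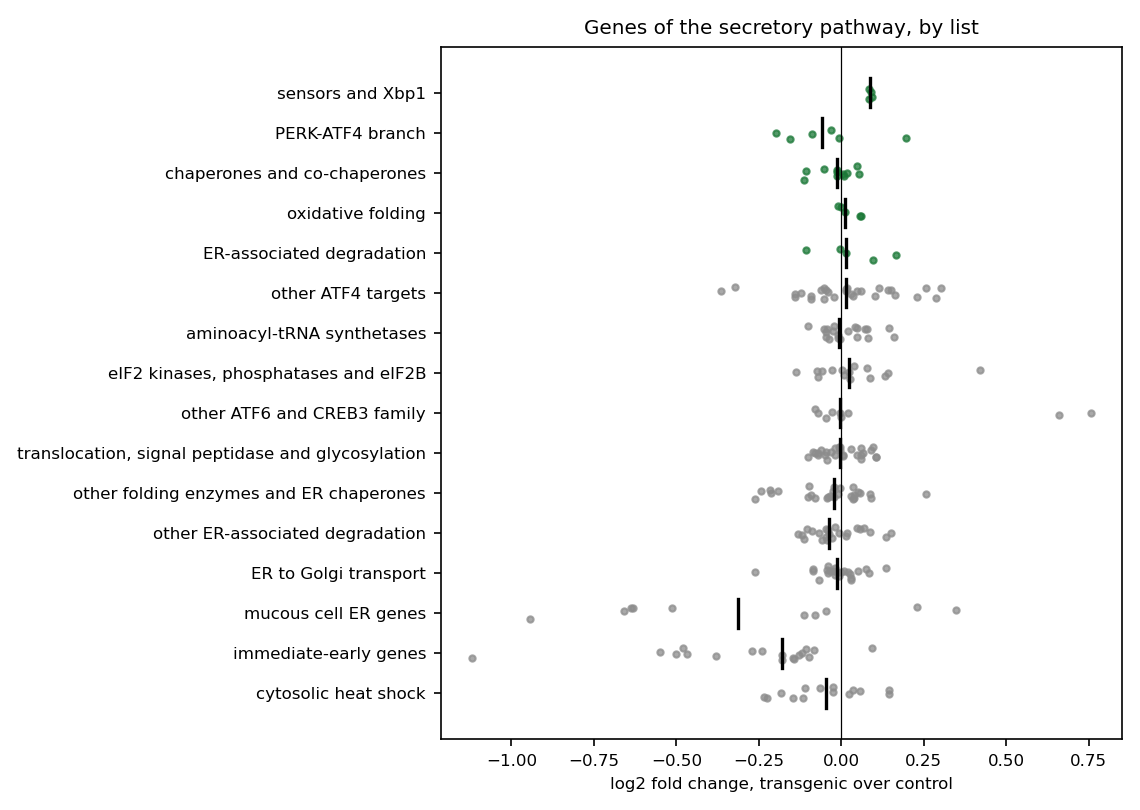
Log2 fold change, transgenic over control, of each tested gene by list; black bars mark list medians, green points the 31 members and grey points genes of other lists; the ATF6 and CREB3 row also holds Mbtps1, Mbtps2 and Bhlha15. The cytosolic heat shock row also holds the mitochondrial genes Hspd1 and Hspe1. Medians of the secretory pathway lists lie close to 0, and those of the mucous cell and immediate-early lists lie below it.

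Downstream of PERK and ATF4, 29 further targets were tested, with 16 values above 0 (median 0.01) and 0 passing. The smallest p in this list belonged to 2 genes that lay apart in opposite directions. Nupr1, a stress-induced chromatin protein, was at 51.2 CPM in B and 44.7 in E, against control levels of 39.3 (D) and 39.4 (F) (log2 fold change 0.29, SE 0.11). Ppp1r15a, encoding GADD34, which restarts translation after PERK signalling, was at 261 CPM in B and 235 in E, against control levels of 297 (D) and 324 (F) (log2 fold change -0.32, SE 0.13). Gpt2, an alanine transaminase, came next (0.23, SE 0.16, and 0.04 without B).

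Aminoacyl-tRNA synthetases, many of them ATF4 targets, had 9 of 20 values above 0 (median -0.0069) and 0 passing. All 20 intervals stayed within 1.5-fold, as did 9306 of the 15985 genes averaging at least 1 CPM, a set not matched to them in abundance. Farsb (0.14, SE 0.11), Lars (0.16, SE 0.16) and Wars (-0.10, SE 0.11) had the smallest p. Among 15 genes of eIF2, its kinases, its phosphatase subunits and its exchange factor, 10 were above 0 (median 0.02) and 0 passed. Behind Eif2s3x, which is X-linked, came the kinase genes Eif2ak4 (0.14, SE 0.11) and Eif2ak2 (0.13, SE 0.11), at 0.05 and 0.04 without B.

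A list of 9 genes held Atf6b, the Creb3 family, the proteases Mbtps1 and Mbtps2 that cut ATF6, and Bhlha15, and 3 of them were above 0 (median -0.0025) and 0 passed. Bhlha15 encodes MIST1, a bHLH transcription factor of professional secretory cells that belongs to neither family, and was at 5.76 CPM in B and 3.52 in E, against control levels of 3.08 (D) and 2.79 (F) (log2 fold change 0.66, SE 0.29, and 0.26 without B). The next by p, Creb3l3, was scarce (0.76, SE 0.88), and Creb3l2 was at -0.07 (SE 0.12). The 10 genes tied to secretion in mucous cells had 2 values above 0 (median -0.31) and 0 passing. Agr2, a disulphide isomerase needed for mucin production, was at 2.50 (B), 3.25 (E), 4.21 (D) and 4.01 (F) CPM (log2 fold change -0.51, SE 0.22). Ern2, the epithelial IRE1 paralog, was under 1 CPM in every library, at 0.291 (B), 0.575 (E), 0.732 (D) and 0.646 (F). Muc5b, a gel-forming mucin, was at 1.88 CPM in B against 12.4 to 20.6 CPM in the other 3 libraries, so its value (-0.94, SE 0.91) rested on B.

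Heat shock genes, which answer misfolding outside the compartment, had 5 of 14 values above 0 (median -0.05) and 0 passing. The list holds cytosolic genes and the mitochondrial chaperone genes Hspd1 and Hspe1. Bag3 (-0.22, SE 0.12), Hspd1 (0.14, SE 0.12, and 0.03 without B) and Hspa8 (-0.12, SE 0.11) had the smallest p. Over all these lists, library B weighed on the values: of the 33 genes named for the smallest p, 22 shrank by more than 1.5 times or changed sign without B, and 2 without E, 5 without D and 6 without F.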

How the data were processed

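Per the submitters' processing notes, reads were processed with TopHat2 (version 2), Bowtie (version 1) and featureCounts (version 1) on mm10/GRCm38. Annotation release, strand setting and multi-mapping rule were not stated in the labels. The authors deposited whole-number read counts per gene, not normalized, and RPKM per coding length. The RPKM were used only to compare levels between genes.

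Counts of all genes were filtered (filterByExpr, minimum count 10, minimum total 15), scaled by TMM and fitted with edgeR 4.0.16 (R 4.3.3; quasi-likelihood with the legacy setting, no covariate, Benjamini-Hochberg at 0.05). Each standard error is the absolute log2 fold change divided by the root of F. Intervals use the fit's total degrees of freedom. CPM use TMM-scaled library sizes. The pipeline was tested on simulated counts with the same dispersion for all genes and only depth differing between libraries of a group. That run does not measure how the test performs on libraries as unlike as these. No library pair agreed within sampling noise (chi-square per gene 18.1 or more). Between groups it was 18.1 (E and F), 57.8 (B and D), 70.2 (D and E) and 160 (B and F). Within groups it was 128 (B and E, transgenic) and 75.6 (D and F, control). Alternatives used DESeq2 1.42.0 and limma 3.58.1, other scaling and filters, and each library left out.

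Members and lists were chosen with earlier results of these data known. Besides the members and Il33, the 3 genes of each other list with the smallest p are named.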

Additional observations from a re-analysis of the deposited data

How the results depend on the processing

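No member passed an adjusted p of 0.05 under any of the 12 alternatives. The PERK-ATF4 median stayed below 0 in all of them, from -0.12 to -0.024 with 1 library left out. Genes called higher numbered 1 by the DESeq2 Wald test (Il33, 3.53) and 0 to 5 with 1 library left out. Genes called lower numbered 0 to 12 with 1 library left out. Il33 ran from 2.96 to 3.93 and passed without B or E. With an added term separating B and D from the other libraries, 0 genes passed and 1281 had an unadjusted p under 0.05. When 3 libraries remained, members with groups apart numbered 26 without B (5 higher in transgenic, 21 lower) and 12 without D (5 and 7). They numbered 21 without E (16 and 5) and 14 without F (6 and 8). Over all genes the shares so placed were 56.5%, 62.5%, 74.2% and 54.4% in that order. The largest member value in size was 0.205 with upper-quartile factors, 0.206 without a filter and 0.208 with the stricter filter. It was 0.206 by limma-voom and 0.202 with the library term, so the bound of 0.2 did not hold in these settings. With 1 library left out it ran from 0.27 to 0.56. Values near 0 changed sign. Hspa5 was -0.0027 with upper-quartile factors, -0.0034 without a filter, -0.0054 with the stricter filter, -0.0048 by limma-voom and -0.0096 with the library term. Creld2 was -0.00050 without a filter and -0.0021 with the stricter one, and P4hb was 0.00016 by limma-voom. The median of the ATF6, CREB3 and Bhlha15 list was -0.0079 with upper-quartile factors, -0.0096 without a filter and -0.023 with the stricter one. With each library left out in turn, these members spanned 0: Asns -0.072 to 0.013, Atf6 -0.025 to 0.20, Canx -0.065 to 0.027, Creld2 -0.19 to 0.17, Derl3 -0.39 to 0.56, Dnajb9 -0.42 to 0.30, Dnajc3 -0.00065 to 0.085, Edem1 -0.070 to 0.052, Ern1 -0.079 to 0.27, Ero1l -0.11 to 0.15, Herpud1 -0.11 to 0.12, Hsp90b1 -0.069 to 0.091, Hspa5 -0.22 to 0.19, Hyou1 -0.061 to 0.15, P4hb -0.089 to 0.074, Pdia3 -0.085 to 0.053, Pdia4 -0.11 to 0.20, Pdia6 -0.18 to 0.27, Sdf2l1 -0.16 to 0.11 and Sesn2 -0.10 to 0.072. So did Creb3l2 (-0.18 to 0.022), Creb3l3 (-0.014 to 2.59) and Lars (-0.056 to 0.34), while Muc5b ran from -3.14 to -0.11. With 1 library left out at a time, list medians ran from -0.16 to 0.091 for chaperones and -0.033 to 0.12 for degradation members. They ran from -0.064 to 0.057 for other ATF4 targets, -0.039 to 0.044 for synthetases and 0.00998 to 0.078 for the eIF2 list. The ATF6, CREB3 and Bhlha15 list ran from -0.030 to 0.017, and other folding enzymes from -0.087 to 0.020. Medians were -0.043 to -0.013 for other degradation genes and -0.075 to 0.035 for Golgi transport. They were -0.51 to -0.10 for mucous cell genes, -0.28 to -0.11 for immediate-early genes and -0.13 to 0.015 for heat shock genes. The alternatives for the list medians were chosen after seeing the data. The cause of these shifts was not tested. No paired analysis was possible because the labels give the libraries letters only, and the replicate numbers used here follow the order of deposit. The term for B and D came from an earlier look at these data, not from a pairing in the labels. Depth limits mainly Chac1 and Derl3.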

Other observations

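Eif2s3x, the X-linked gene of the gamma subunit of eIF2, on which PERK signalling converges, has a near-identical copy on the Y chromosome, Eif2s3y. Eif2s3x was at 147 (B), 136 (E), 95.6 (D) and 116 (F) CPM (log2 fold change 0.42, SE 0.13, unadjusted p = 0.0242, adjusted p = 1 in edgeR's quasi-likelihood test). Eif2s3y was at 0 counts in B and at 5.62 (E), 73.5 (D) and 29.4 (F) CPM in the others. The sum of both was 147 (B), 141 (E), 169 (D) and 145 (F) CPM, so it did not keep the group separation of Eif2s3x. Reads of the 2 copies may be shared between them. The level of Y-linked RNA and the genotype cannot be told apart in these 4 libraries.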
